A study of Mus musculus with 6 samples.

Results

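Heart RNA was described for 35 genes of the Z-disc, the M-band and the wider scaffold of the sarcomere, including titin, the actin-capping proteins and proteins of the costamere. They were chosen by gene name, with earlier results of these data known, and all 35 were found among the 44200 gene models of the count table. Hearts of male C57BL/6 mice aged 2 months (young) and 22 months (old) were compared to find the RNA levels that differ with age. Each age had 3 hearts, numbered 1 to 3, from separate animals fed normal chow. The labels name no engineered allele, drug or surgery in either group. They give total RNA of heart tissue, while 1 line on extraction speaks of NRVMs, an abbreviation they do not spell out.

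The Z-disc is the plate on which the actin filaments of neighbouring sarcomeres are anchored and cross-linked by alpha-actinin. Titin runs from the Z-disc to the M-band and acts as a molecular spring, and its ends and elastic segments are docking sites for LIM-domain and ankyrin-repeat proteins. Costameres tie the outermost Z-discs to the cell membrane and the matrix. In heart muscle several of these proteins are known to respond to stretch, some by moving to the nucleus, and inherited changes in many of them cause cardiomyopathy.

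Libraries held 13673856 to 15583364 counted reads, and reads on the 35 genes made up 2.02 to 2.22% of counts in young hearts and 2.97, 2.58 and 2.23% in old 1, 2 and 3. Cardiomyocyte genes were abundant in all 6 libraries: the 10 cardiomyocyte markers summed to 85319, 75518 and 77894 CPM in young 1, 2 and 3 and 68301, 72070.4 and 63223 CPM in old 1, 2 and 3. Defining genes of skeletal muscle were near 0, with no read of Myh2 or Myh4 in any library. The sum of 6 atrial markers was 51.1, 112 and 139.6 CPM in young 1, 2 and 3 and 349, 27.6 and 91.8 CPM in old 1, 2 and 3, so old 1 stood above the other 5 libraries on this measure. Old 1 was also less like old 2 and old 3 (correlation of log2 CPM over genes, Pearson's r of 0.965 and 0.972) than these were like each other (0.984). Results that rest on old 1 are given with and without it. In heart tissue, fewer cells of a type and less RNA per cell cannot be told apart.

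Levels are given as CPM, counts scaled to library depth with TMM factors, and are means ± SD of 3 libraries per age. A log2 fold change is old over young, ± its approximate standard error, and a gene was called at a Benjamini-Hochberg adjusted p below 0.05 from edgeR's quasi-likelihood test over all genes tested. Read numbers allowed a test for 34 of the 35 genes. Of these, 6 rose in old hearts (Pdlim3, Myot, Flnc, Tcap, Ankrd1 and Xirp1), 3 fell (Fhl2, Tmod1 and Nebl) and 25 were not called. That is 26.5% called, against 15.1% of all 14413 genes tested, where 8.72% were called higher and 6.36% lower. The median log2 fold change of the 34 genes was 0.12, against 0.02 for all genes tested, with 21 values above 0 and 13 below. The 3 old libraries lay wholly above the young ones for 11 of the 34 genes and wholly below for 5, and such separation, in either direction, held for 37.3% of all genes tested.

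Promoters were searched for motifs bound by transcription factors of heart muscle. The M-CAT motif of TEAD factors was searched as CATTCC. The site of GATA factors was searched as AGATAA. The site of the homeobox factor NKX2-5 was searched as TNAAGTG. The CArG box of serum response factor and the MEF2 site were the other motifs. RefSeq promoter sequence (GRCm38.p6) was at hand for 29 of the 35 genes, with 42 start sites, and the 250 bases before each start were read on both strands. Start sites of 1 gene can share sequence, and the CArG box and the MEF2 site, both rich in A and T, can overlap. A CArG box was found in 8 of the 42 promoters (19.0%), against 1.47% of the 32851 promoters in the table. A MEF2 site was found in 7 (16.7%), against 2.92%. M-CAT occurred in 10 (23.8%) against 12.6%, GATA in 7 (16.7%) against 9.99%, and NKX in 2 (4.76%) against 10.1%. Of the 6 genes that rose, Tcap and Xirp1 were not matched, and Myot was left out with its chromosome. Promoters were counted for Ankrd1, Flnc and Pdlim3, 4 in all since Flnc had 2 that overlap. M-CAT was present in 3 of these 4 promoters, 1 for each gene, and in 2 of the 7 promoters of called genes that fell. None of those 4 promoters held a CArG box or a MEF2 site, and 3 of the 7 held a CArG box. GATA was present in 1 of the 4 and in 3 of the 7. The 7 are start sites of only Fhl2, Nebl and Tmod1, and the 3 with a CArG box belong to Fhl2 and Nebl. Among genes not called, Fhl1, Ldb3, Myom1 and Vcl also had a CArG box. M-CAT was likewise present in Ankrd23, Mybpc2, Mypn, Palld and Vcl, which were not called. A link between motif and direction was not tested. The windows of 30 bases around the M-CAT matches of genes that rose are printed, to show the letters they share, on the gene's own strand, with the motif in capitals (GGAATG is M-CAT read on the other strand). For Ankrd1 (minus strand) they lie at chr19:36120037-36120066 and chr19:36119950-36119979, for Flnc (plus) at chr6:29433140-29433169, and for Pdlim3 (plus) at chr8:45885274-45885303 and chr8:45885457-45885486.
Ankrd1, first: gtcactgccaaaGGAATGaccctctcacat
Ankrd1, second: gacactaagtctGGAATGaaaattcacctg
Flnc: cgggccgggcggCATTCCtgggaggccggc
Pdlim3, first: gtgttacttaatGGAATGatggaagctgta
Pdlim3, second: ggataaatctccgggacagCATTCCcagtt

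Among the called genes that fell, Fhl2 carried a CArG box at each of 2 start sites and a MEF2 site. Nebl carried a CArG box and an M-CAT match, and Tmod1 an M-CAT match. Fhl2 and Nebl also carried GATA matches, for which no window is printed. The Fhl2 windows (minus strand) lie at chr1:43196838-43196867, chr1:43196773-43196802 and chr1:43163973-43164002, and those of Nebl (minus strand) at chr2:17462999-17463028 and chr2:17670378-17670407. A match describes the letters of the sequence and not the binding of a factor, which was not measured.
Fhl2, CArG: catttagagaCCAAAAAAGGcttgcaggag
Fhl2, MEF2: tggacatgccTTATTTATAActctgctgac
Fhl2, CArG at the other start: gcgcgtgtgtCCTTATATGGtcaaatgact
Nebl, CArG: gctcccatctCCTAAATTGGctggaaatgc
Nebl, M-CAT: taagagaatctaCATTCCttcgtcagtgca

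**Figure D1:**
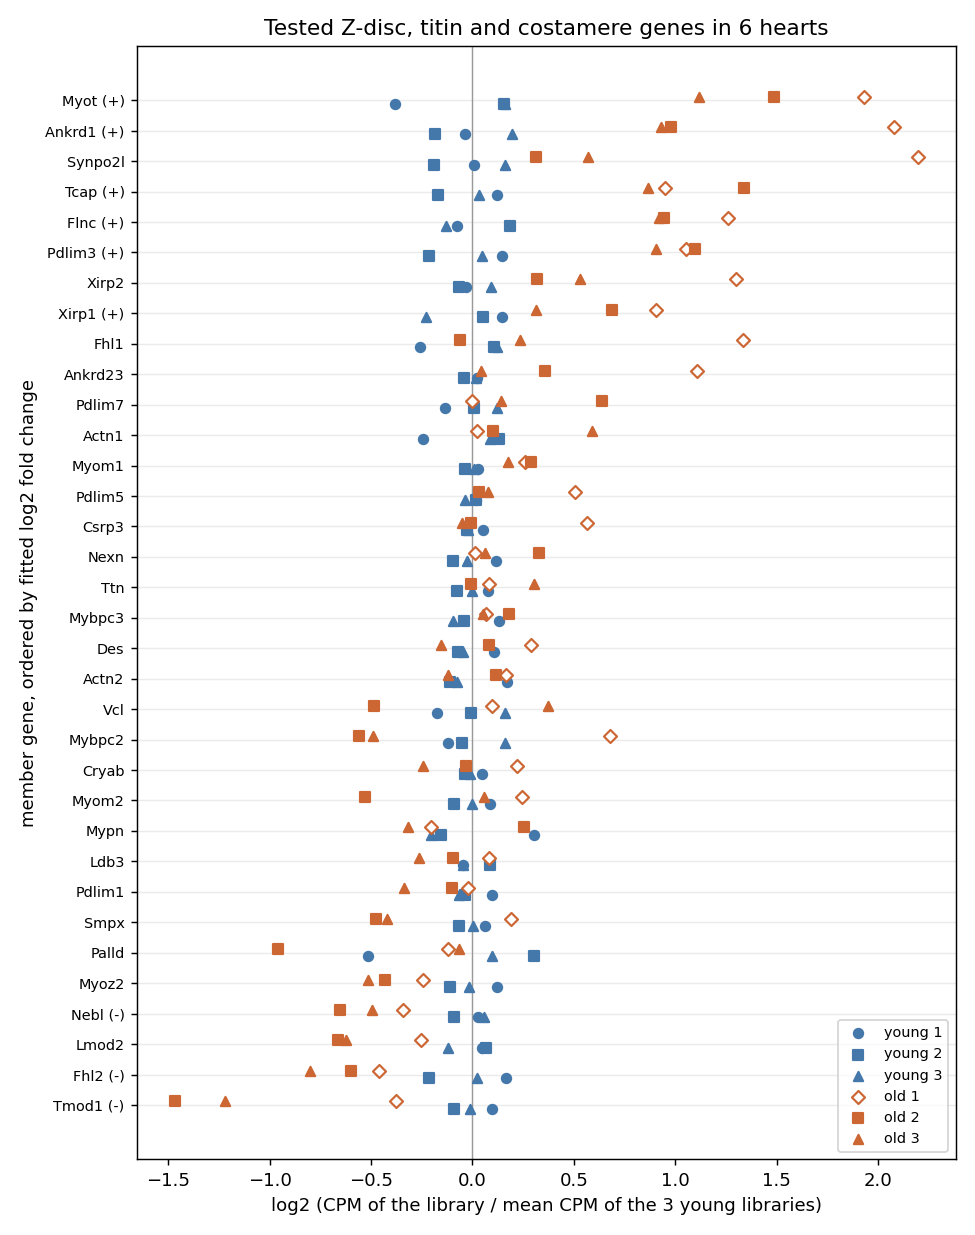
Tested genes in each of the 6 hearts, as the log2 of a library's CPM over the mean CPM of the 3 young libraries (horizontal axis), ordered by fitted log2 fold change. Blue marks are young and orange marks old libraries, old 1 is the open diamond, and (+) or (-) marks a gene called higher or lower. Old libraries are to the right of all young ones for Myot, Tcap, Flnc and Pdlim3, and old 1 alone is far to the right for Synpo2l and Fhl1.

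At titin and the proteins that bind its Z-disc end, the cap rose while titin itself was not called. Tcap (telethonin), which caps 2 titin molecules at the Z-disc, had 1858, 1515 and 1746 CPM in the young libraries and 3295, 4321 and 3104 CPM in old 1, 2 and 3. All old hearts were above all young ones, and old 2 was the highest (ENSMUSG00000007877, chromosome 11, 98383811 to 98384953). The level went from 1706 ± 175 to 3573 ± 654 CPM, a 2.09-fold difference (log2 fold change 1.07 ± 0.17, adjusted p = 0.00506 by edgeR). Titin (Ttn), the spring of the sarcomere, had young and old means of 2744 ± 145 and 3007 ± 338 CPM with overlapping groups (log2 fold change 0.13 ± 0.14, adjusted p = 0.538 by edgeR). Counts per gene sum all titin isoforms, so a shift between stiff and compliant forms is not seen in them. Csrp3, the muscle LIM protein that partners with telethonin, had young and old means of 1213 ± 37.5 and 1389 ± 348 CPM (log2 fold change 0.20 ± 0.18, adjusted p = 0.472 by edgeR). Only old 1, with 1790 CPM, lay above the young range for Csrp3, and without it the log2 fold change was −0.03. Scaling to cardiomyocyte markers called Csrp3 higher (0.49, edgeR adjusted p = 0.0397, range 0.0397 to 0.839).

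With all 6 libraries and their default factors (TMM for edgeR and limma-voom), none of the 4 M-band and myosin-binding genes was called by edgeR, DESeq2 or limma-voom, and none had an unadjusted p below 0.05 from edgeR. Scaling to cardiomyocyte markers called Myom1 (0.55, edgeR adjusted p = 0.0121, range 0.0121 to 0.465) and Mybpc3 (0.41, 0.0338, range 0.0338 to 0.939) higher. Myom1 (myomesin), which cross-links myosin at the M-band, had young and old means of 1140.3 ± 26 and 1347 ± 54.7 CPM, and its groups did not overlap (log2 fold change 0.24 ± 0.12, adjusted p = 0.202 by edgeR). Myom2 (M-protein), its relative, had young and old means of 1095 ± 66.8 and 1066 ± 278 CPM (log2 fold change −0.04 ± 0.19), with old 2 the lowest library at 759 CPM. Mybpc3, the cardiac myosin-binding protein C, had young and old means of 2695 ± 224 and 2888 ± 141 CPM (log2 fold change 0.10 ± 0.13, adjusted p = 0.632 by edgeR). Mybpc2, the fast skeletal form, had young and old means of 31.5 ± 3.26 and 31.4 ± 16.4 CPM (log2 fold change −0.00 ± 0.30), with old 1 highest at 50.4 CPM and old 2 and old 3 at 21.4 and 22.4 CPM. Without old 1, Mybpc2 was called lower (log2 fold change −0.53 ± 0.12, edgeR adjusted p = 0.00797, over a range of 0.00797 to 0.998 for 19 alternatives).

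Of the cross-linkers and scaffold proteins of the Z-disc, Myot rose and Nebl fell. Myot (myotilin), which bundles actin and binds alpha-actinin and filamin C, had 27.1, 39.3 and 39.5 CPM in the young libraries and 135, 99 and 76.7 CPM in old 1, 2 and 3. The lowest old library was almost 2 times the highest young one, and old 1 was the highest (ENSMUSG00000024471, chromosome 18, 44334074 to 44355724). This was the largest called rise among the 35 genes, from 35.3 ± 7.09 to 104 ± 29.3 CPM (log2 fold change 1.55 ± 0.23, adjusted p = 0.00380 by edgeR). Nebl (nebulette), the cardiac relative of nebulin that ties actin filaments to the Z-disc, had 122.7, 113 and 125 CPM in the young libraries and 95, 76.6 and 85.5 CPM in old 1, 2 and 3. Every old heart was below every young one, and old 1 was nearest to the young hearts (ENSMUSG00000053702, chromosome 2, 17343909 to 17731464). Mean values went from 120.4 ± 6.55 to 85.7 ± 9.2 CPM (log2 fold change −0.49 ± 0.13, adjusted p = 0.0364 by edgeR). Among the alternatives that ended the Nebl call were leaving out any library other than old 1, with edgeR adjusted p from 0.0810 to 0.138, and scaling to cardiomyocyte markers (0.340), within a range of 0.00264 to 0.340 over the 19 alternatives.

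A pair of further genes of this class were separated between the ages but were not called. Synpo2l, a heart-enriched actin-associated protein, had 65.9, 57.4 and 73.3 CPM in the young libraries and 301, 81.3 and 97.2 CPM in old 1, 2 and 3. Old 1 was over 3 times the next highest library, while old 2 and old 3 were a little above the young range (ENSMUSG00000039376, chromosome 14, 20658946 to 20668354). The fitted difference (log2 fold change 1.29 ± 0.43, adjusted p = 0.0697 by edgeR) shrank to 0.44 ± 0.13 without old 1, where it was called (edgeR adjusted p = 0.0214, range 0.00141 to 0.204 over 19 alternatives). Myoz2 (calsarcin-1), which binds calcineurin at the Z-disc and restrains it, had 1075, 913 and 975 CPM in the young libraries and 834, 733 and 690.2 CPM in old 1, 2 and 3. All 3 old hearts were below the lowest young heart (log2 fold change −0.39 ± 0.14, adjusted p = 0.0821 by edgeR), and the gene was called lower by DESeq2 (adjusted p = 0.0410) and without old 1 (edgeR adjusted p = 0.00964), over a range of 0.00964 to 0.592.

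The other Z-disc scaffold genes overlapped between the ages and none was called in the edgeR fit with 6 libraries and TMM factors. Scaling to cardiomyocyte markers called Actn2 (0.36, edgeR adjusted p = 0.0451, range 0.0451 to 0.998) and Nexn (0.45, 0.0436, range 0.0436 to 0.886) higher. Actn2, the alpha-actinin of heart muscle, had young and old means of 1735 ± 187 and 1807 ± 187 CPM (log2 fold change 0.06 ± 0.14, adjusted p = 0.809 by edgeR), and Actn1, the form of non-muscle cells, means of 32.5 ± 4.44 and 38.9 ± 8.72 CPM (log2 fold change 0.26 ± 0.18). Ldb3 (Cypher), a PDZ-LIM protein that binds alpha-actinin, had young and old means of 646 ± 34.3 and 609 ± 72.6 CPM (log2 fold change −0.09 ± 0.14). Mypn (myopalladin), which binds nebulette and Ankrd1, had young and old means of 102 ± 20.8 and 97.5 ± 21.3 CPM (log2 fold change −0.07 ± 0.19), and its relative Palld (palladin) means of 35.4 ± 9.67 and 28.2 ± 8.64 CPM (log2 fold change −0.33 ± 0.26). Nexn (nexilin), an actin-binding Z-disc protein, had young and old means of 393 ± 30 and 433 ± 52.6 CPM (log2 fold change 0.14 ± 0.14).

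Among the PDZ-LIM and four-and-a-half-LIM genes of the 35, Pdlim3 rose and Fhl2 fell. Pdlim3 (ALP), which binds alpha-actinin at the Z-disc, had 28.1, 21.9 and 26.3 CPM in the young libraries and 52.8, 54.3 and 47.6 CPM in old 1, 2 and 3. The old hearts were close to each other and all were above the young range (ENSMUSG00000031636, chromosome 8, 45885461 to 45919548). The mean went from 25.4 ± 3.18 to 51.6 ± 3.49 CPM, the smallest p of the 35 genes (log2 fold change 1.02 ± 0.14, adjusted p = 0.00315 by edgeR). Fhl2, a LIM protein that binds the elastic part of titin and acts with transcription factors, had 1113, 855 and 1006 CPM in the young libraries and 719.7, 654 and 569.9 CPM in old 1, 2 and 3. Old and young libraries did not overlap, and young 2 was the lowest young library (ENSMUSG00000008136, chromosome 1, 43123074 to 43196984). On average it went from 991 ± 129.7 to 648 ± 75.1 CPM (log2 fold change −0.61 ± 0.15, adjusted p = 0.0279 by edgeR). The Fhl2 call ended without any 1 library other than old 1 (edgeR adjusted p 0.0522 to 0.128) and on scaling to cardiomyocyte markers (0.0923), within a range of 0.00236 to 0.128.

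The remaining LIM proteins were not called in the edgeR fit with 6 libraries and TMM factors. Fhl1, which also binds titin and is known as a sensor of stretch, had young and old means of 102 ± 14.5 and 158 ± 86.5 CPM (log2 fold change 0.64 ± 0.32, adjusted p = 0.195 by edgeR). Its old 1 value was 257 CPM, against 97.8 and 119.9 CPM in old 2 and old 3, and without old 1 the log2 fold change was 0.09 ± 0.14. Pdlim5 (ENH), an adaptor of protein kinase C and alpha-actinin, had young and old means of 354 ± 7.65 and 412 ± 78.3 CPM (log2 fold change 0.22 ± 0.15), with old 1 highest at 502 CPM. Without old 1 its log2 fold change was 0.05 ± 0.10, and with libraries scaled to cardiomyocyte markers it was called higher (0.52, edgeR adjusted p = 0.0282, range 0.0282 to 0.710). Pdlim1 (CLP36) had young and old means of 51.4 ± 3.13 and 46.4 ± 5.17 CPM (log2 fold change −0.15 ± 0.13). Pdlim7 (Enigma) had young and old means of 53.3 ± 4.71 and 64.9 ± 15.8 CPM (log2 fold change 0.28 ± 0.18), with old 2 highest at 82.8 CPM, and was called higher only without old 1 among the 19 alternatives (edgeR adjusted p = 0.0496, range 0.0496 to 0.770).

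Of the 3 muscle ankyrin-repeat genes, whose proteins bind titin's elastic segment and are known to respond to stretch, Ankrd1 rose. Ankrd1 (CARP), also a cofactor of transcription, had 606, 547 and 711 CPM in the young libraries and 2625, 1226 and 1184 CPM in old 1, 2 and 3. Old 1 was more than 2 times old 2 and old 3, and each of these was above all young hearts (ENSMUSG00000024803, chromosome 19, 36111961 to 36120099). Means went from 621 ± 83.2 to 1678 ± 820.1 CPM (log2 fold change 1.43 ± 0.29, adjusted p = 0.0135 by edgeR). Without old 1 the log2 fold change was 0.95 ± 0.13 (edgeR adjusted p = 0.000454), while without young 1 or young 2 the adjusted p was 0.0693 or 0.0738, within a range of 6.2e-06 to 0.0738. Ankrd23 (DARP) had 10.9, 10.4 and 10.9 CPM in the young libraries and 23.2, 13.8 and 11.1 CPM in old 1, 2 and 3. Old 3 lay just above the young hearts and old 1 far above them, and the gene was not called (log2 fold change 0.58 ± 0.25, adjusted p = 0.149 by edgeR), with a log2 fold change of 0.21 without old 1. With libraries scaled to cardiomyocyte markers Ankrd23 was called higher (0.86, edgeR adjusted p = 0.0255, range 0.0255 to 0.331). Ankrd23 shares 2109 exonic bases with an overlapping gene model on the same strand. Ankrd2 had too few reads for a test, with 9, 7 and 8 reads in the young libraries and 38, 8 and 6 in old 1, 2 and 3.

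Filamin C rose, as did 1 of the 2 Xin proteins that bind it, and the other was just short of the threshold. Flnc (filamin C), which cross-links actin at Z-discs and costameres, had 165, 198 and 159 CPM in the young libraries and 417, 335 and 329.8 CPM in old 1, 2 and 3. The lowest old heart was well above the highest young one (ENSMUSG00000068699, chromosome 6, 29433256 to 29461883). Young and old means were 174 ± 21.1 and 360.4 ± 48.9 CPM (log2 fold change 1.05 ± 0.15, adjusted p = 0.00381 by edgeR). Xirp1 (Xin), an actin-binding partner of filamin C, had 149, 139.5 and 115 CPM in the young libraries and 252, 217 and 167 CPM in old 1, 2 and 3. Old 3 was nearest to the young range (ENSMUSG00000079243, chromosome 9, 120013755 to 120023598). Its mean went from 134 ± 17.6 to 212 ± 42.4 CPM (log2 fold change 0.66 ± 0.18, adjusted p = 0.0364 by edgeR), and the call ended when any young library or old 2 was left out (adjusted p from edgeR 0.0750 to 0.170) and in limma on log2 FPKM (adjusted p 0.0545 to 0.0557), within a range of 0.00448 to 0.170. Xirp2, its relative, had 242, 237 and 264 CPM in the young libraries and 610.1, 309 and 358 CPM in old 1, 2 and 3. All old hearts were above the young ones, old 1 by far the most, and the gene was not called (log2 fold change 0.78 ± 0.23, adjusted p = 0.0510 by edgeR). Without old 1 its log2 fold change was 0.43 ± 0.11, and it was called (edgeR adjusted p = 0.0135, range 0.00571 to 0.171).

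Of the 2 genes for proteins at the pointed ends of the thin filaments, Tmod1 fell and Lmod2 was just short of the threshold. Tmod1 (tropomodulin 1), which caps the pointed end of actin, had 53.3, 46.7 and 49.5 CPM in the young libraries and 38.4, 18 and 21.4 CPM in old 1, 2 and 3. Old 1 lay between the young hearts and the other old ones (ENSMUSG00000028328, chromosome 4, 46038935 to 46116032). Its mean went from 49.9 ± 3.31 to 25.9 ± 10.9 CPM (log2 fold change −0.94 ± 0.25, adjusted p = 0.0345 by edgeR). Without old 1 the log2 fold change was −1.34 ± 0.12 (edgeR adjusted p = 8.63e-05), and without any other single library the adjusted p lay between 0.0756 and 0.130. Scaling to cardiomyocyte markers gave 0.0625, so the range was 8.63e-05 to 0.130. Tmod1 shares 1287 exonic bases with Tstd2 on the opposite strand, and whether the authors' counting used strand is not given in the sources used here. Lmod2 (leiomodin 2), which lengthens thin filaments and competes with tropomodulin, had 586, 595 and 522 CPM in the young libraries and 475, 358 and 368 CPM in old 1, 2 and 3. Groups did not overlap, all old hearts being below the young ones, and the gene was not called (log2 fold change −0.50 ± 0.15, adjusted p = 0.0519 by edgeR). It was called lower in 6 of the 19 alternatives, among them DESeq2 (adjusted p = 0.0148), limma-voom (0.0474) and edgeR without old 1 (0.00162), over a range of 0.00162 to 0.293.

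The intermediate filament, chaperone and costamere genes overlapped between the ages. With all 6 libraries and their default factors (TMM for edgeR and limma-voom), none of the 4 was called by edgeR, DESeq2 or limma-voom, and none had an unadjusted p below 0.05 from edgeR. Des (desmin), which links Z-discs to each other and to the membrane, had young and old means of 1999 ± 136 and 2118 ± 321 CPM (log2 fold change 0.08 ± 0.15), and it was called higher in 1 of the 19 alternatives, scaling to cardiomyocyte markers (0.38, edgeR adjusted p = 0.0396, range 0.0396 to 0.929). Cryab, a small heat shock protein that protects desmin and titin, had young and old means of 1339 ± 40.5 and 1332 ± 214 CPM (log2 fold change −0.01 ± 0.15). Vcl (vinculin), which joins actin to the membrane at costameres, had young and old means of 23.4 ± 2.73 and 24 ± 6.86 CPM (log2 fold change 0.04 ± 0.21), and it shares 2090 exonic bases with Ap3m1 on the opposite strand. Smpx (chisel), a small protein of costameres and Z-discs, had young and old means of 200.2 ± 8.78 and 174 ± 47.4 CPM (log2 fold change −0.20 ± 0.18). Without old 1, Smpx was called lower (log2 fold change −0.45 ± 0.10, edgeR adjusted p = 0.00687, range 0.00687 to 0.803).

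Levels can be compared between genes only per length, for which the authors' FPKM values were used (fragments scaled to gene length and depth). In young hearts the 5 highest were Tcap at 1727 ± 176, Csrp3 at 1196 ± 40.7, Cryab at 1084 ± 35.1, Mybpc3 at 621 ± 54.2 and Des at 511 ± 36 FPKM. These 5 each stood clear of the next below, except that Des overlapped Fhl2. In old hearts the 5 highest were Tcap at 3606 ± 687, Csrp3 at 1363 ± 329.7, Cryab at 1074 ± 166, Ankrd1 at 907 ± 435 and Mybpc3 at 663 ± 37.1 FPKM. Tcap stood clear of the other 4, and each of these overlapped its neighbour. Ankrd1 was eighth of the 35 genes in young hearts. The 5 lowest in young hearts were Nebl at 7.58 ± 0.387, Vcl at 4.28 ± 0.478, Palld at 4.0 ± 1.09, Ankrd23 at 3.82 ± 0.0885 and Ankrd2 at 0.468 ± 0.0656 FPKM. The same 5 were lowest in old hearts, with Ankrd23 at 5.66 ± 2.2, Nebl at 5.37 ± 0.529, Vcl at 4.38 ± 1.24, Palld at 3.17 ± 0.957 and Ankrd2 at 0.963 ± 0.904 FPKM. Of the 34 pairs of neighbours in the order, libraries overlapped in 19 pairs in young hearts and in 26 pairs in old hearts. Titin, with 2744 ± 145 CPM in young hearts, was only 18th per length because its FPKM divides by 116789 bases, the length recovered from its counts and FPKM.

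**Figure D2:**
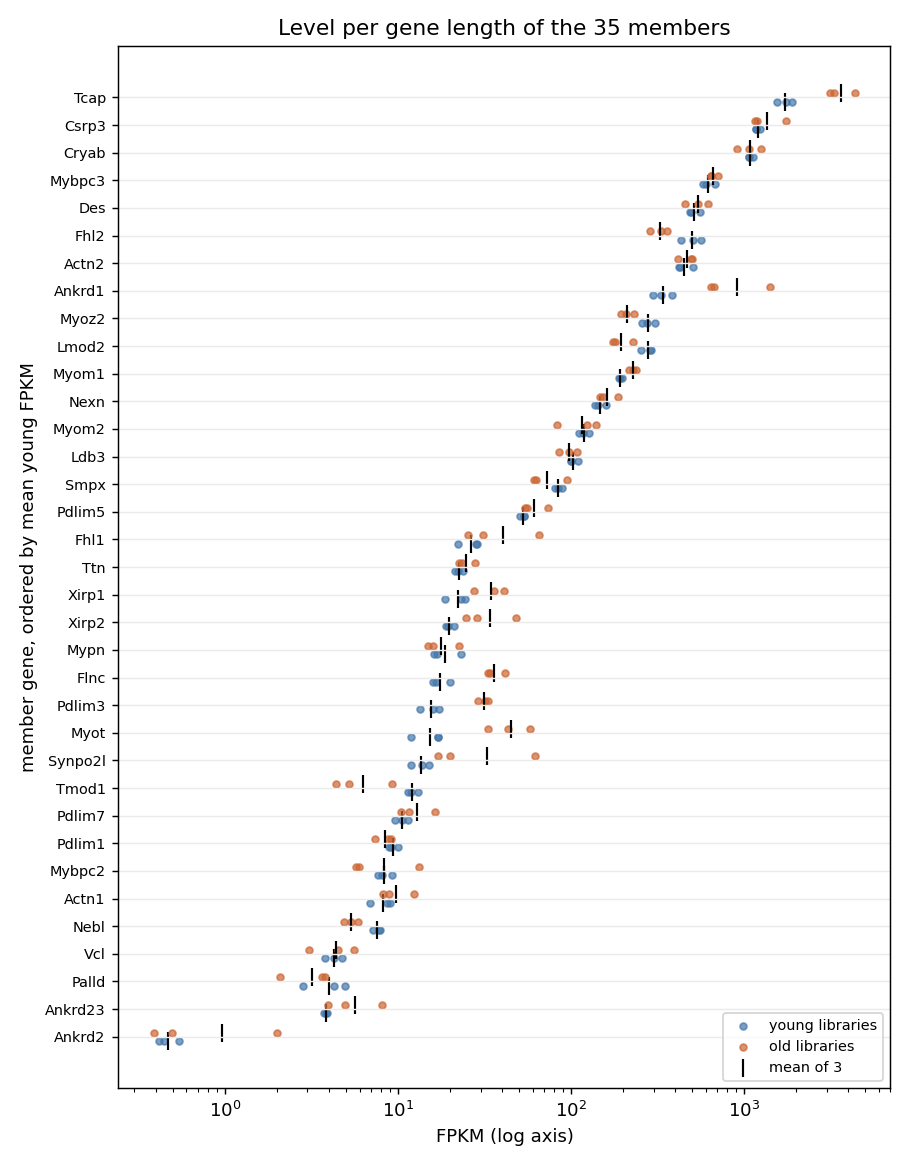
Levels per gene length in FPKM (horizontal log axis) of all 35 genes, ordered by mean in young hearts. Points are libraries, blue for young and orange for old, and the vertical tick is the mean of 3; levels run from 0.468 FPKM for Ankrd2 to 1727 FPKM for Tcap in young hearts.

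The 3 old hearts differed more from each other than the young ones did, and old 1 was often the highest. The SD of log2 CPM was larger in old than in young hearts for 31 of the 34 tested genes (91.2%), against 76.4% of all genes tested. Its median was 0.12 in young and 0.28 in old hearts for these genes, and 0.14 and 0.28 for all genes. Old 1 was the highest of the 6 libraries for 15 of the 34 genes (44.1%), against 19.1% of all genes. Those included Ankrd1, Synpo2l, Xirp1, Xirp2, Fhl1, Flnc and Myot. The same library held the highest sum of atrial markers (349 CPM), with 145 CPM of Nppa, 87.3 of Myl4, 54 of Myl7 and 23 of Sln, and also 2547 CPM of Myh7, the slow myosin of stressed heart, against 1102 and 1447 CPM in old 2 and old 3. Bmp10, another atrial marker, had 0 reads in 5 libraries. The part of atrial tissue in the values of old 1 was not tested.

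With old 1 left out, 9 of the 34 genes rose and 7 fell, where 37.9% of all 14702 genes tested were called, 20.1% higher and 17.7% lower. All 9 genes called with 6 libraries were called again in the same direction. Added were Xirp2, Synpo2l and Pdlim7 as higher and Lmod2, Myoz2, Mybpc2 and Smpx as lower. The median log2 fold change of the 34 genes went from 0.12 to 0.03. The rises of Tcap (1.12), Pdlim3 (1.0), Flnc (0.93) and Myot (1.31) were of similar size without old 1, whereas log2 fold changes shrank from 1.29 to 0.44 for Synpo2l, from 0.78 to 0.43 for Xirp2, from 0.64 to 0.09 for Fhl1 and from 0.58 to 0.21 for Ankrd23.

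**Figure D3:**
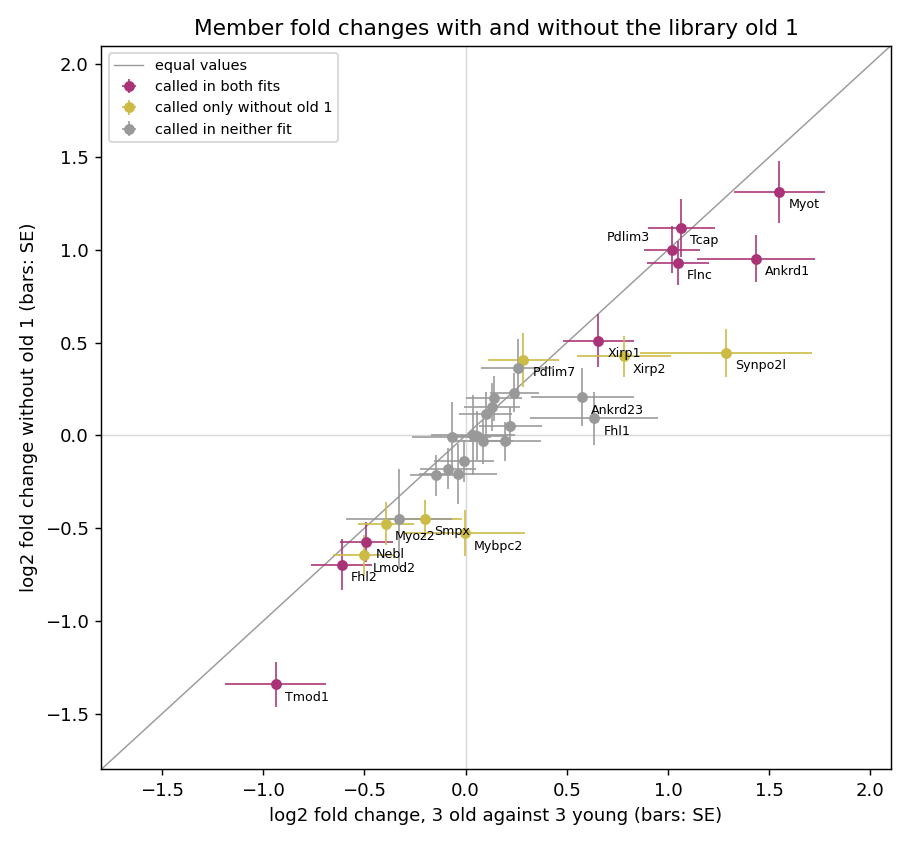
Log2 fold change of each tested gene with all 6 libraries (horizontal) and without old 1 (vertical), with bars of 1 approximate standard error and the line of equal values. Purple points were called in both fits, yellow ones only without old 1; Ankrd1 (1.43 and 0.95), Synpo2l (1.29 and 0.44) and Fhl1 (0.64 and 0.09) lie well below the line.

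Ratios of 2 related genes within a library do not depend on how libraries are scaled. Of 14 pairs of paralogs or partners compared by an exact two-sided permutation test of log2 FPKM ratios, 6 had groups that did not overlap, each with p = 0.1, the smallest that 3 against 3 allow (Benjamini-Hochberg adjusted p = 0.233). Single genes were separated in this way for 37.3% of all genes tested, and no such share was worked out for ratios. Except for Pdlim1/Pdlim5, each of the 6 pairs holds a gene called on its own (Fhl2, Myot, Pdlim3, Ankrd1 or Tcap). The Fhl1/Fhl2 ratio was 0.0391, 0.0655 and 0.0564 in young hearts and 0.183, 0.0764 and 0.107 in old 1, 2 and 3, a log2 difference of 1.12. The Myot/Mypn ratio was 0.511, 1.02 and 1.06 in young and 3.61, 1.93 and 2.22 in old hearts. Per length, myotilin RNA was thus above myopalladin RNA in each old heart and near or below it in the young ones. The Pdlim3/Pdlim5 ratio was 0.321, 0.250 and 0.311 against 0.429, 0.615 and 0.522. The Ankrd1/Ankrd23 ratio was 84.8, 79.9 and 99.9 against 173, 136 and 164, so old 1 did not stand apart in it. Ankrd23, its divisor, shares 2109 of its 2697 annotated exonic bases with another gene model on the same strand. The ratios of Csrp3 to Tcap (0.658, 0.765 and 0.666 against 0.529, 0.272 and 0.368) and of Pdlim1 to Pdlim5 (log2 difference −0.36) were lower in old hearts. Ratios of the other 8 pairs overlapped, among them Xirp1/Xirp2 (log2 difference −0.07, exact permutation p = 0.9) and Lmod2/Tmod1 (0.51, p = 0.2).

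**Figure D4:**
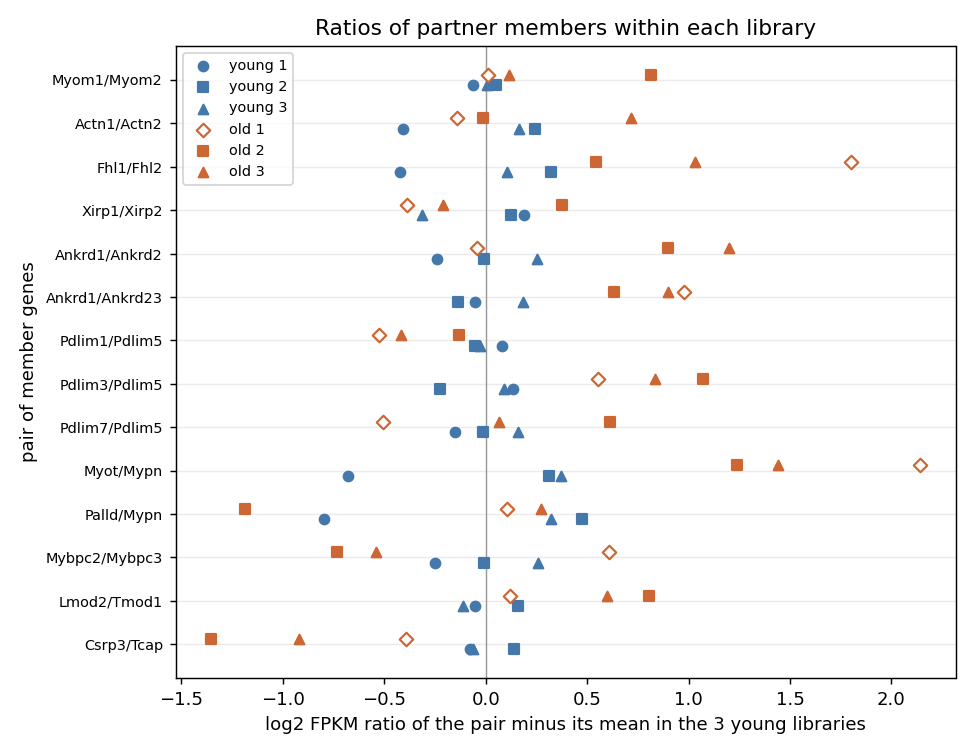
Log2 FPKM ratio of 14 pairs of genes within each library, minus the pair's mean in the 3 young libraries (horizontal axis). Blue marks are young and orange marks old libraries, with old 1 as the open diamond; old libraries lie to the right of all young ones for Fhl1/Fhl2, Ankrd1/Ankrd23, Pdlim3/Pdlim5 and Myot/Mypn, and to the left for Pdlim1/Pdlim5 and Csrp3/Tcap.

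A wider list of 65 genes, none of them among the 35, gave 59 tested genes. Of these, 6 rose and 7 fell (22.0% called, against 15.1% of all genes). The list held sarcomere scaffold, costamere and chaperone genes, and also others such as Ckm, Mylk3, Jph2, Pkp2 and Vim. Ckm and Mylk3 were among the 7 that fell. Like the 35, the list was chosen with earlier results of these data known. Its median log2 fold change was 0.08. Sorbs2, an adaptor of costameres and Z-discs, went from 226 ± 24.2 to 419.7 ± 53.6 CPM (log2 fold change 0.89 ± 0.15, adjusted p = 0.00652 by edgeR). Ckm, the muscle creatine kinase that binds the M-band, went from 1068 ± 48.1 to 611 ± 95.5 CPM (log2 fold change −0.80 ± 0.15, adjusted p = 0.00933 by edgeR). Lmod3, a relative of leiomodin 2, went from 54.3 ± 9.51 to 31.5 ± 2.11 CPM (log2 fold change −0.78 ± 0.15, adjusted p = 0.0120 by edgeR), and Trim63 (MuRF1), a titin-binding ubiquitin ligase, from 244 ± 18.2 to 137 ± 27.4 CPM (log2 fold change −0.83 ± 0.16, adjusted p = 0.0120 by edgeR). Without old 1 the wider list had 11 genes higher and 16 lower, where 20.1% of all genes were called higher and 17.7% lower.

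The direction of the small differences depends on the reference chosen for scaling. Of all called genes, 57.8% were higher in old hearts with TMM factors and 51.1% with upper-quartile factors. When libraries were scaled to the 10 cardiomyocyte markers, 3363 genes were higher and 307 lower (91.6% higher), and the median of all genes moved from 0.02 to 0.32. On that scale 16 of the 34 genes were called higher and 0 lower by edgeR, with 2 lower at an unadjusted p below 0.05. Fhl2 (−0.31), Tmod1 (−0.65) and Nebl (−0.19) kept negative log2 fold changes there without being called. Of the 10 markers in that reference 3 fell with TMM factors (Actc1, Myh6 and Pln), 1 rose (Myl2) and 6 were not called.

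Markers of other cell types also differed between the groups. Of 6 endothelial markers Cdh5 and Pecam1 fell and 4 were not called, and all 6 had log2 fold changes below 0. The 6 summed to 2383 to 2817 CPM in young and 2121 to 2153 CPM in old hearts. Much of that sum was Fabp4, which was not called, with means of 1395 ± 184 and 1344 ± 37.6 CPM. Of 7 fibroblast markers Col1a1 and Col3a1 fell, with sums of 895 to 1292 CPM and 557 to 1265 CPM. Of 6 macrophage markers C1qa and C1qb rose, with sums of 173 to 207 CPM and 289 to 357 CPM. Of 8 smooth muscle and pericyte markers Kcnj8 fell and 7 were not called, 4 of the 8 having log2 fold changes above 0 and 4 below, with sums of 1131 to 1406 CPM and 823 to 1223 CPM. Skeletal muscle markers summed to 5.09 to 7.21 CPM and 7.12 to 12.8 CPM. Of 4 genes of the fetal or stress programme Myh7 rose and Acta1 fell. The part of these cell types in the values of the 35 genes was not tested.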

How the data were processed

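RNA of 6 hearts, 3 young and 3 old, was measured by sequencing. The submitters' processing notes name HISAT2, the Subread tool featureCounts and the build GRCm38.p6, and the deposited counts are whole reads per gene. A second deposited table holds FPKM values of 13170 genes made by the authors; its scale departs from that of the counts by at most 10.6%, in old 1. The sources used here do not give tool versions, the annotation release, or how strand and multi-mapped reads were treated.

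The 571 gene models without a name (0.295 to 0.368% of counts) were left out. In R 4.3.3, edgeR 4.0.16 was run on the counts with filterByExpr, TMM factors and quasi-likelihood F tests over all 14413 genes that passed, with Benjamini-Hochberg adjustment and a threshold of 0.05. The approximate standard error is the absolute log2 fold change over the square root of F, and the biological coefficient of variation was 0.187. FPKM ratios of 14 pairs were compared by exact permutation. Gene coordinates and exon overlaps are those of GENCODE M21 (GRCm38), and promoters come from the RefSeq table of GRCm38.p6.

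The members, the wider list and the marker lists were chosen with earlier results of these data known. All 35 members are named. CPM in every library is given for those with an unadjusted p below 0.05, FPKM for the 5 highest and 5 lowest, and other lists are named by up to 4 called genes of smallest p. Alternatives were other scaling factors and filters, DESeq2 1.42.0, limma 3.58.1 on voom weights or log2 FPKM with a pseudocount of 1 or 0.1, removal of a length trend, a replicate block, and leaving out libraries 1 by 1. Libraries with the same replicate number did not deviate together (r of −0.09, −0.07 and 0.03 over genes for numbers 1, 2 and 3), so the numbers were not taken as pairs.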

Additional observations from a re-analysis of the deposited data

How the results depend on the processing

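The calls of Tcap, Flnc, Pdlim3 and Myot held under all 19 alternatives. With libraries scaled to cardiomyocyte markers, 3670 genes were called, 16 members higher and 0 lower, 14 genes of the wider list higher and 3 lower, and the members' median was 0.43. That scaling turned the log2 fold changes of Myom2 (0.27), Ldb3 (0.21), Cryab (0.29), Mybpc2 (0.27), Pdlim1 (0.15), Mypn (0.24) and Smpx (0.091) positive. DESeq2 called 7 members higher and 5 lower of the 34 tested, against 6 and 3 in the main fit. It also called 8 genes of the wider list higher and 10 lower, against 6 and 7. The wider list had 3 genes higher in each of the limma fits on log2 FPKM and with the length trend removed together with the replicate block. Vcl, near 0, turned to −0.0040 with upper-quartile factors, −0.0014 with limma-voom, −0.0039 with limma on log2(FPKM + 0.1) and −0.027 with the length trend removed and the replicate block. The replicate block alone left 6 members higher and 2 lower, with 1774 genes called in all, and ended the call of Nebl (edgeR adjusted p = 0.0593, or 0.0514 with the length trend removed as well, range 0.00264 to 0.340); no other member's call changed under it.

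Leaving out 1 library at a time gave 539 (without young 1) to 5570 (without old 1) called genes, 0 to 7 members lower, 0 to 11 genes of the wider list higher and 0 to 16 lower. The count of members lower was 0 without each library other than old 1, where 4 or 5 members were lower at an unadjusted p below 0.05. The wider list had 0 genes higher without young 2 (8 at an unadjusted p below 0.05) and 0 lower without young 1 (11). The members' median lay between 0.027 and 0.17, and 6 to 10 of the pair ratios did not overlap. Directions that turned were those of differences near 0: Actn2 (−0.00095 to 0.15), Myom2 (−0.21 to 0.15), Csrp3 (−0.031 to 0.30), Cryab (−0.14 to 0.10), Mybpc2 (−0.53 to 0.21), Des (−0.032 to 0.19), Mypn (−0.26 to 0.10) and Vcl (−0.17 to 0.24). The cause was not tested. Fits without 1 library rest on 5 hearts.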
